A study of Mus musculus with 6 samples.

Results

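The Slc7 amino acid exchangers and their Slc3 partners are described here as 9 genes: the heavy chains *Slc3a2* and *Slc3a1*, the light chains *Slc7a5*, *Slc7a6*, *Slc7a7*, *Slc7a8* and *Slc7a11*, and the cationic amino acid transporters *Slc7a1* and *Slc7a3*. They were taken by symbol from the gene-name columns, where all 9 were found among the 35602 genes of the count table and among the 34714 genes of each table that holds 1 library. CD4+ T cells from mouse spleen were activated with antibodies to CD3 and CD28 and cultured either with MAPK13-IN-1, a compound that inhibits the kinase Mapk13, or with the solvent DMSO, and their messenger RNA was sequenced to find transcripts that differ between the treatments. Each group holds 3 libraries. Replicates 2 and 3 of each group came from wild-type cells that received 17.1 µM of the inhibitor, or DMSO, after day 1 of activation, whereas the series description places the agents in the culture for 72 h; the labels of the replicate 1 pair state the agent but neither dose nor genotype, and no label states strain or age. Replicates 2 and 3 are given as gene counts, with totals of 26874805 and 28487403 in DMSO-treated cells and 33854760 and 32617702 in inhibitor-treated cells. The replicate 1 pair was prepared with another library kit and holds values read as FPKM, of unknown depth, and without replicates.

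Slc7 light chains carry the transport pore, and most of them reach the cell surface only as a disulfide-linked dimer with a single-pass Slc3 glycoprotein. Slc3a2, also known as CD98 or 4F2 heavy chain, is the common partner in blood cells, while the cationic transporters Slc7a1 and Slc7a3 work without a heavy chain. Activated T cells are known for a strong demand for large neutral amino acids, which the Slc7a5 and Slc3a2 dimer imports in exchange for intracellular glutamine.

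With the inhibitor, the main neutral exchanger *Slc7a5*, both cationic transporters and the common heavy chain *Slc3a2* fell, and the alternative heavy chain *Slc3a1* rose from a low level. In the count libraries 7 of the 9 members were lower and 1 was higher at an adjusted p under 0.05 in the quasi-likelihood test of edgeR, adjusted by the Benjamini-Hochberg method over all genes, and under 8 of 11 other settings 6 were lower, as *Slc7a7* lost its call; each edgeR adjusted p given here is of this kind, and SE is the standard error of the log2 fold change. Over all 16269 genes tested, 63.8% passed in either direction, 32.3% were lower and 31.5% were higher. The members had a median log2 fold change of −0.80, against 0.01 over all genes tested. All 9 passed the filter on low counts, *Slc7a8* only through its DMSO libraries, the group in which it was higher. In the replicate 1 pair, 6 members reached 1 FPKM in at least 1 library, and 2 of them, *Slc7a5* and *Slc7a3*, were at least 2-fold lower on the log2(FPKM + 1) scale, a scale that understates changes of low genes; 1.91% of the 11510 genes at that level were as much lower. None of the 6 was 2-fold higher, against 7.12% of those genes. Of the 8 members that passed in the count libraries, 6 differed in the same direction in the replicate 1 pair, among them *Slc3a1*, below 1 FPKM in both libraries. Of the 11510 genes at 1 FPKM or more in that pair, 5010 were lower. How often all genes that passed kept their direction there was not counted. Because these are bulk samples, fewer cells of a type and less RNA per cell cannot be told apart. Nothing in the labels says that the replicates came from separate cultures or animals, so p-values measure only the spread between these samples, which may be technical.

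**Figure D1:**
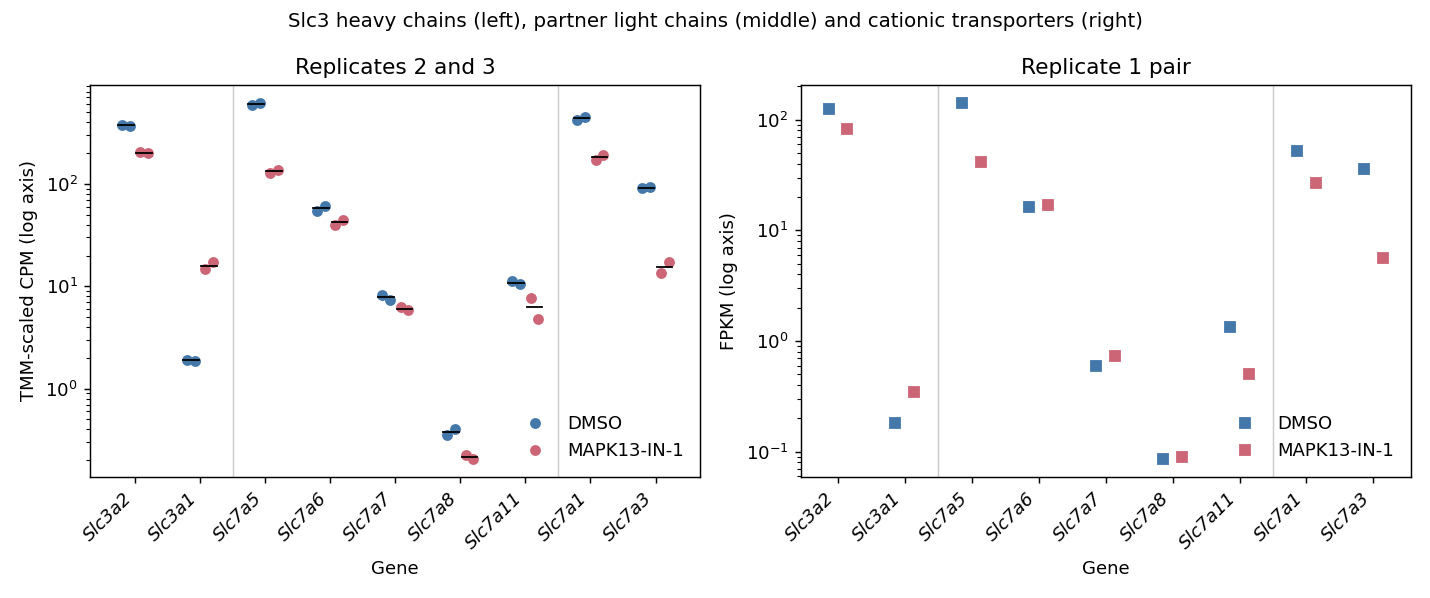
Levels of the 9 members in each library, on log axes; circles are replicates 2 and 3 in TMM-scaled CPM with a line at the mean of 2, and squares are the replicate 1 pair in FPKM, with DMSO in blue and MAPK13-IN-1 in red. *Slc7a5*, *Slc7a3*, *Slc7a1*, *Slc7a11* and *Slc3a2* were lower with the inhibitor in both panels and *Slc3a1* was higher in both, while *Slc7a6* was lower in the left panel and at 16.2 and 17.1 FPKM in the right.

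Among the heavy chains, *Slc3a2* (GRCm38, chr19:8706882-8723369, minus strand) stood at 378 and 371 CPM (reads relative to TMM-scaled library sizes) in DMSO replicates 2 and 3 and at 206 and 200 CPM in inhibitor replicates 2 and 3. The groups did not overlap, and the replicates of each group lay close together. The means were 375 ± 5.28 CPM in DMSO-treated and 203 ± 4.73 CPM in inhibitor-treated cells (SD, n = 2), at a log2 fold change of −0.88 (SE 0.0527, edgeR adjusted p = 3.53e-07). Replicate 1 gave 126 FPKM for the DMSO library and 82.1 FPKM for the treated library, 65.3% of the DMSO value.

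*Slc3a1*, which encodes rBAT, the heavy chain of the cystine and dibasic amino acid exchanger of kidney and intestine, had 49 and 51 counts in DMSO replicates 2 and 3 and 522 and 580 counts in inhibitor replicates 2 and 3. Both inhibitor libraries lay far above both DMSO libraries. Scaled, this was 1.89 ± 0.0176 against 15.9 ± 1.70 CPM (SD, n = 2), at a log2 fold change of 3.07 (SE 0.162, edgeR adjusted p = 1.79e-07). Replicate 1 held 0.181 FPKM in the DMSO library and 0.348 FPKM in the inhibitor library, a log2 ratio of 0.19 with a pseudocount of 1. The difference had the same sign there at a level below 1 FPKM in both libraries. The light chain partners known for rBAT were nearly absent: *Slc7a9* had 0 counts in both DMSO libraries and 2 in each inhibitor library, *Slc7a13* had 0 counts in all 4, and both were listed at 0 in the replicate 1 pair. A count of 0 allows up to 3 counts, or between 0.0886 and 0.112 CPM of the unscaled totals of these libraries, as far as counting error goes.

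The *Slc3a1* gene (GRCm38, chr17:85028376-85064236, plus strand) overlaps the end of *Prepl*, on the opposite strand, over 767 bases. The labels of replicates 2 and 3 do not describe a strand-specific kit, so reads from that stretch cannot be assigned to either gene. *Prepl* had 434 and 511 reads under DMSO and 580 and 515 under the inhibitor, and its log2 fold change of −0.18 did not pass the test (edgeR adjusted p = 0.181). *Camkmt*, which lies beside *Prepl*, had 102 and 125 counts in DMSO-treated and 379 and 274 in inhibitor-treated cells, at a log2 fold change of 1.13 (SE 0.180, edgeR adjusted p = 0.000294). Both neighbours were added after the data were seen.

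Among the light chains that pair with Slc3a2, *Slc7a5*, the pore of the large neutral amino acid transporter LAT1 (chr8:121881150-121907694, minus strand), was counted 15205 and 16919 times in DMSO replicates 2 and 3 and 4565 and 4666 times in inhibitor replicates 2 and 3. That is 590 and 622 CPM against 129 and 138 CPM, with no overlap. The inhibitor-treated level was 22.0% of the DMSO level, at a log2 fold change of −2.19 (SE 0.0592, edgeR adjusted p = 4.10e-09). The replicate 1 pair, at 142 and 41.5 FPKM, was at 29.2%. A gene model on the opposite strand, *Gm20388*, spans the whole of *Slc7a5* in the annotation, has no row in the count table, and without strand its reads cannot be told apart from those of *Slc7a5*.

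*Slc7a6*, the light chain of an exchanger of cationic for neutral amino acids (y+LAT2), was at 54.5 and 61.6 CPM in the DMSO libraries and 39.8 and 44.4 CPM in the inhibitor libraries. The groups did not overlap, but the gap between them was narrower than for *Slc7a5*. Its log2 fold change came to −0.46 (SE 0.0878, edgeR adjusted p = 0.000945). The replicate 1 pair did not show a lower value, with 16.2 FPKM in the DMSO library and 17.1 FPKM in the inhibitor library. *Slc7a6os*, a neighbour on chromosome 8 with no overlap, had a log2 fold change of 0.06.

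*Slc7a11*, the cystine and glutamate exchanger xCT (chr3:49892526-50443614, minus strand), had 292 and 284 reads in DMSO-treated cells and 271 and 164 reads in inhibitor replicates 2 and 3. In CPM these were 11.3 and 10.4 against 7.64 and 4.84, so the groups were separate while the inhibitor libraries differed from each other more than the DMSO libraries did. The log2 fold change came to −0.80 (SE 0.194, edgeR adjusted p = 0.00434), and it was −0.52 without inhibitor replicate 3 and −1.17 without inhibitor replicate 2. Values of 1.35 and 0.502 FPKM were found in the replicate 1 pair.

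*Slc7a7*, the light chain y+LAT1, had 213 and 202 reads under DMSO and 222 and 199 under the inhibitor, which is 8.26 and 7.43 CPM against 6.25 and 5.87 CPM. The raw counts of the groups overlapped and the scaled values did not. The log2 fold change of −0.37 passed narrowly (SE 0.147, edgeR adjusted p = 0.0470), and the call ended under 8 of 11 other settings, among them leaving out DMSO replicate 2, DMSO replicate 3 or inhibitor replicate 3 (log2 fold changes of −0.30, −0.45 and −0.33) and DESeq2, with adjusted p between 0.0284 and 0.256 over all 11. The replicate 1 pair was at 0.593 and 0.738 FPKM, in the other direction. *Slc7a7* (chr14:54369442-54417780, minus strand) overlaps *Oxa1l* over 232 bases on the opposite strand, and *Oxa1l* had a log2 fold change of −0.19 that did not pass (edgeR adjusted p = 0.0540), though it passed at −0.26 without inhibitor replicate 3.

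*Slc7a8*, the light chain of the neutral exchanger LAT2, was close to the limit of detection, with 9 and 11 reads under DMSO and 8 and 7 under the inhibitor. A difference was not detectable at this depth (log2 fold change −0.79, SE 0.526, edgeR adjusted p = 0.21). Its values in the replicate 1 pair were 0.0864 and 0.0887 FPKM.

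Both cationic amino acid transporters were lower. *Slc7a1*, which encodes CAT1, the widely expressed arginine and lysine carrier (chr5:148327410-148399904, minus strand), stood at 421 and 455 CPM in DMSO replicates 2 and 3 and at 173 and 192 CPM in inhibitor replicates 2 and 3. The groups were far apart relative to the spread within each. The log2 fold change came to −1.26 (SE 0.0654, edgeR adjusted p = 1.61e-07), and the replicate 1 pair was at 52.6 and 27.1 FPKM.

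*Slc7a3*, which encodes the related carrier CAT3 (chrX:101079210-101086020, minus strand), had 2336 and 2514 counts in DMSO replicates 2 and 3 and 478 and 580 counts in inhibitor replicates 2 and 3. Inhibitor-treated cells retained 16.7% of the DMSO level in the count libraries and 15.6% in the replicate 1 pair, where the values were 36.2 and 5.66 FPKM. Its log2 fold change of −2.58 was the largest decrease among the 9 members (SE 0.104, edgeR adjusted p = 3.63e-08). *Slc7a3* also made up a smaller part of the cationic transporter transcripts with the inhibitor. Scaled by transcript length, its share of the sum of *Slc7a1* and *Slc7a3* was 40.8%, 36.0% and 34.7% in DMSO replicates 1, 2 and 3 and 17.3%, 16.9% and 18.9% in inhibitor replicates 1, 2 and 3. The shares of the groups did not overlap.

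Relative to the heavy chain, *Slc7a5* and the summed light chains were lower in the inhibitor libraries. The log2 ratio of *Slc7a5* to *Slc3a2* reads was 0.64 and 0.75 in DMSO replicates 2 and 3 and −0.68 and −0.54 in inhibitor replicates 2 and 3. With the other 4 light chains added to *Slc7a5*, the ratio was 0.81 and 0.92 against −0.18 and −0.05. Neither ratio overlapped between the groups, and a ratio within a library does not depend on the scaling between libraries. The differences were −1.30 for *Slc7a5* and −0.98 for the sum, each with p = 0.333 in a two-sided exact permutation test, the smallest p that the 6 arrangements of 2 against 2 libraries allow. In FPKM the replicate 1 pair went from 0.18 to −0.98 for *Slc7a5* over *Slc3a2* and from 0.35 to −0.45 for the sum.

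The make-up of the light chain pool differed between the groups as well. Per transcript length, *Slc7a5* accounted for 88.7%, 89.6% and 89.4% of the summed light chains in DMSO replicates 1, 2 and 3 and for 69.3%, 72.0% and 72.3% in inhibitor replicates 1, 2 and 3. The share of *Slc7a6* was 10.1%, 7.76% and 8.30% in the DMSO libraries and 28.5%, 20.9% and 21.9% in the inhibitor libraries. Both shares separated the groups in all 6 libraries, in opposite directions. As parts of a fixed whole the shares are not independent, and a smaller share of *Slc7a5* leaves a larger one to the others. In level, *Slc7a6* was lower in the count libraries (log2 fold change −0.46) and at 16.2 and 17.1 FPKM in the replicate 1 pair. Relative to *Slc3a2*, the *Slc7a6* level was 0.129 in DMSO and 0.208 in inhibitor replicate 1, 0.0698 and 0.0936 in replicate 2, and 0.0806 and 0.108 in replicate 3. *Slc7a7* held 0.369%, 1.94% and 1.65% of the pool in the DMSO libraries and 1.23%, 5.40% and 4.76% in the inhibitor libraries, and *Slc7a8* and *Slc7a11* together with it stayed minor parts. The shares per transcript length were chosen after the data were seen and were not tested.

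**Figure D2:**
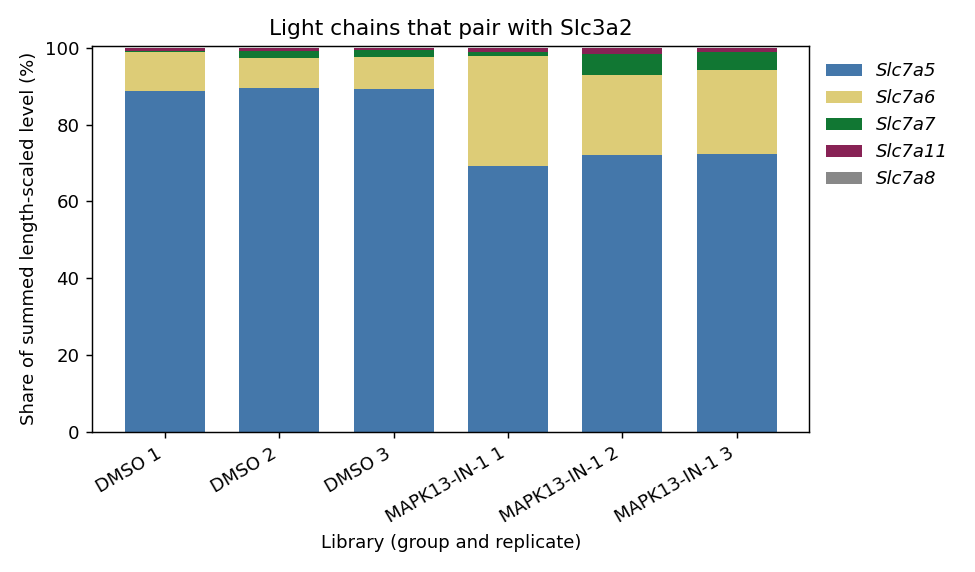
Stacked bars give the share of each of 5 light chains in their summed level per library, from FPKM in replicate 1 and from CPM per kilobase of transcript in replicates 2 and 3. *Slc7a5* took between 88.7% and 89.6% in the DMSO libraries and between 69.3% and 72.3% in the inhibitor libraries, with *Slc7a6* taking most of the rest.

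The order of the 9 levels was compared only per length, as FPKM in replicate 1 and as CPM per kilobase of the longest principal transcript in replicates 2 and 3. In the DMSO libraries *Slc7a5* and *Slc3a2* held the first places, *Slc3a2* first in replicates 2 and 3, with 200 and 195 CPM per kilobase against 161 and 169 for *Slc7a5*, and *Slc7a5* first in replicate 1. *Slc7a1*, *Slc7a3* and *Slc7a6* followed in that order in all 3 DMSO libraries. With the inhibitor *Slc3a2* was first, followed by *Slc7a5* and then *Slc7a1*, in all 3 libraries. *Slc7a6* then stood above *Slc7a3* in each inhibitor library, at 11.1 and 12.3 against 5.13 and 6.47 CPM per kilobase in replicates 2 and 3. *Slc3a1* moved from place 8 in both DMSO count libraries to place 5 in both inhibitor count libraries and stayed at place 8 in replicate 1. *Slc7a8* was last in all 6 libraries. In the inhibitor count libraries *Slc3a1*, at 6.79 and 7.83, and *Slc7a3*, at 5.13 and 6.47, stood next to each other. Their values did not overlap, but the gap from 6.47 to 6.79 was smaller than the difference between replicates of either gene.

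Of 8 other Slc7 genes, only *Slc7a2* and *Slc7a4* passed the filter on low counts, *Slc7a2* through both DMSO libraries and 1 inhibitor library. *Slc7a2*, a further cationic transporter, had 22 and 28 reads under DMSO and 12 and 8 under the inhibitor (log2 fold change −1.70, edgeR adjusted p = 0.00543), a difference that DESeq2 did not call. *Slc7a4* was lower, with 52 and 53 against 23 and 25 counts (log2 fold change −1.51, edgeR adjusted p = 0.00116). The replicate 1 pair went the other way at low levels, from 0.269 to 0.757 FPKM for *Slc7a2* and from 0.240 to 0.665 FPKM for *Slc7a4*. *Slc7a10*, a light chain that can also pair with Slc3a2, had 0 and 5 reads under DMSO and 0 and 4 under the inhibitor. Its values in the replicate 1 pair were 0.14 FPKM in the DMSO library and 0.956 FPKM in the inhibitor library. *Slc7a12* and *Slc7a14* had 0 counts in all 4 count libraries, and *Slc7a15* had 1 count in 1 DMSO library.

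Markers of cell types moved with the groups in the count libraries, where 32.3% of all genes tested were lower and 31.5% were higher. Of 10 CD4 T cell markers, 9 were tested (*Trac* was not analysed here), 8 were lower with the inhibitor, led by *Lck*, *Cd2*, *Cd3g* and *Thy1*, and *Cd4* was at 275 CPM in each group. The list summed to 1870 and 1899 CPM of library totals in DMSO replicates 2 and 3 and to 1047 and 1181 CPM in inhibitor replicates 2 and 3, with *Cd5* the most abundant by reads in both DMSO libraries and *Cd4* in both inhibitor libraries. B cell markers were abundant in every count library: the sum of 7 was 849 and 823 CPM in the DMSO libraries and 1143 and 1132 CPM in the inhibitor libraries, *Pax5* was the most abundant in both inhibitor libraries, and of the 7, all tested, 6 were higher, among them *Blk*, *Pax5*, *Ms4a1* and *Ebf1*, while *Cd22* was lower. Without DMSO replicate 2, and likewise without DMSO replicate 3, 4 were higher. None of these 7 was at 0.

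The other marker lists were at low levels. Macrophage markers summed to 11.98 and 10.5 CPM in the DMSO libraries and 42.5 and 34.4 CPM in the inhibitor libraries; of 10, 6 were tested and 4 were higher (*Cd68*, the most abundant, *Lyz2*, *Adgre1* and *Cd14*), besides *C1qb*, and *Mertk*, *C1qa* and *C1qc* were at 0 in both DMSO libraries. Dendritic cell markers summed to 43.1 and 43.5 against 64.1 and 54.8 CPM; of 8, 5 were tested, 3 were higher (*Zbtb46*, the most abundant in both inhibitor libraries, *Flt3* and *Itgax*), besides *Xcr1*, *Batf3*, the most abundant in both DMSO libraries, which activated T cells also express, was lower, *Cd209a* was at 0 in all 4 libraries, and *Siglech* and *Clec9a* were at 0 in both DMSO libraries. Erythroid markers summed to 7.52 and 7.20 against 94.5 and 67.4 CPM; of 9, 7 were tested and 5 were higher, led by *Hbb-bs*, the most abundant in both inhibitor libraries, besides *Slc4a1*, and *Epb42* was at 0 in both DMSO libraries. CD8 T and NK cell markers summed to 12.9 and 12.8 against 7.97 and 10.6 CPM; of 7, 4 were tested and 2 were lower (*Cd8a* and *Cd8b1*, the most abundant), *Klra8* was at 0 in all 4 libraries and *Ncr1* in both DMSO libraries. Neutrophil markers stayed at or below 1.01 CPM in sum in each library; of 8, only *Mpo* was tested, with 2 and 2 counts under DMSO and 17 and 16 under the inhibitor, *Cxcr2*, named after its values were seen, had 6 and 14 against 0 and 3, the most abundant being *Cxcr2* in both DMSO and *Mpo* in both inhibitor libraries, *S100a9* was at 0 in all 4 libraries, and *Retnlg* and *Camp* were at 0 in both DMSO libraries. *C1qb*, *Xcr1*, *Slc4a1* and *Mpo* passed the filter only through their inhibitor libraries, the group in which they were higher, so their direction is no support. *C1qb*, at a log2 fold change of 3.18, came to 6.60 without DMSO replicate 2 and lost its call without DMSO replicate 3 (2.21) and with DESeq2, *Xcr1* went from 2.97 to 7.30 without DMSO replicate 3, and *Cd8b1* went from −0.60 to −0.38 without inhibitor replicate 2. *Slc4a1*, at 2.59, came to 6.53 without DMSO replicate 3 and lost its call without DMSO replicate 2 (1.66), inhibitor replicate 2 (2.67) or inhibitor replicate 3 (2.49). DESeq2 did not call *Slc4a1*, *Cd8b1* or *Mpo*. The part of these cell types in the changes of the transporters was not tested. In the replicate 1 pair the CD4 T cell markers summed to 1358 FPKM in the DMSO library and 1340 FPKM in the inhibitor library. Of 9 such markers at 1 FPKM or more, 5 were lower, beside 5010 of 11510 genes. *Thy1*, from 92.7 to 213 FPKM, *Cd3g*, from 155 to 166 FPKM, and *Cd28*, from 67.8 to 78.1 FPKM, went the other way. The B cell markers of this pair summed to 35.7 and 26.2 FPKM. The 6 of them at 1 FPKM or more were all lower, with a median of −0.412, beside 5010 of 11510 genes. Of these 6, only *Cd22* was also lower in the count libraries. The macrophage markers of the pair summed to 3.00 and 9.50 FPKM. Its dendritic cell markers summed to 29.9 and 50.5 FPKM, of which *Batf3* made up 26.6 and 35.9 FPKM and so went the other way. Its CD8 T and NK cell markers summed to 4.35 and 13.5 FPKM. Of these, *Cd8a* (0.131 to 0.553 FPKM) and *Cd8b1* (3.36 to 7.84 FPKM) went the other way. Its erythroid markers summed to 0.931 and 1.94 FPKM and its neutrophil markers to 0.685 and 0.442 FPKM.

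Amino acid transporters outside the Slc7 family moved in both directions, as did all genes tested, of which 32.3% were lower and 31.5% were higher. Of 21 listed, 17 were tested, 5 were lower and 7 were higher (5 without DMSO replicate 2 and 6 without DMSO replicate 3), with a median log2 fold change of −0.02, which was 0.06 under upper-quartile scaling and 0.10 with library totals alone, and which lay between −0.05 and 0.03 without 1 library. The decreases included *Slc6a9*, a glycine carrier, from 85.3 and 93.6 CPM in the DMSO libraries to 9.86 and 14.3 CPM in the inhibitor libraries (log2 fold change −2.89, SE 0.139). *Slc1a5*, the glutamine carrier whose substrate Slc7a5 can exchange, went from 572 and 610 to 227 and 235 CPM (log2 fold change −1.36, SE 0.0552). For both genes the groups were widely separated. *Slc1a4*, a carrier of alanine, serine and cysteine, and *Slc16a10*, a carrier of aromatic amino acids, had log2 fold changes of −1.97 each, and *Slc38a1*, named after its value was seen, had −0.35, or −0.23 with library totals alone. The 7 that were higher lay between 0.24 and 1.91. Of the methionine and glutamine carriers that did not pass, *Slc38a2* was at 190 and 182 against 199 and 173 CPM, and *Slc43a2* was at 39.8 and 38.2 against 38.2 and 38.5 CPM; *Slc38a7*, *Slc43a1* and *Slc36a4* did not pass either, and *Slc1a3*, *Slc6a15*, *Slc6a20a* and *Slc38a5* were not tested. In the replicate 1 pair 3 of the 15 transporters at 1 FPKM or more were at least 2-fold lower and 1 was at least 2-fold higher. Of all 11510 genes at that level, 1.91% were as much lower and 7.12% as much higher.

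Transcripts of proteins known to bind or regulate the Slc3a2 dimer moved in both directions in the count libraries. Of 6 tested, 2 were lower and 3 were higher, beside 32.3% and 31.5% of all genes tested. The median of the 6 was 0.07, or 0.03 without DMSO replicate 3. *Cd44*, a surface receptor that binds the xCT dimer, was at 173 and 162 CPM in the DMSO libraries and 361 and 339 CPM in the inhibitor libraries (log2 fold change 1.06, SE 0.0600). *Itgb1*, the integrin chain to which Slc3a2 binds, had a log2 fold change of 0.23, which was 0.36 with library totals alone and 0.20 with no call without DMSO replicate 3, and *Laptm4b*, a lysosomal protein that recruits the LAT1 dimer, had 0.37 and was named after its value was seen. *Lgals3*, a lectin that binds CD98, had −0.76, and *Otub1*, a deubiquitinase that binds xCT, had −0.61. *Laptm4b* lost its call without DMSO replicate 2 (0.24) and with DESeq2. *Bsg* did not pass, except without inhibitor replicate 3 (−0.19). In the replicate 1 pair 5 of the 6 were higher, with a median of 0.758. Of the 11510 genes at 1 FPKM or more there, 5010 were lower, and their median was 0.079. At least 2-fold higher were 2 of the 6, beside 7.12% of those 11510 genes. *Lgals3*, from 28.8 to 44.8 FPKM, and *Bsg*, from 127.5 to 169.1 FPKM, went the other way.

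Among 9 regulators, 4 were lower, 2 were higher and 3 did not pass, where 63.8% of all genes tested passed in either direction. *Atf4*, the transcription factor of the amino acid response, was at 543 and 549 CPM in the DMSO libraries and 286 and 264 CPM in the inhibitor libraries (log2 fold change −0.99, SE 0.0555), and at 249 and 118 FPKM in the replicate 1 pair. It was lower in all 3 inhibitor libraries than in any DMSO library measured on the same scale. *Myc* went from 265 and 295 to 132 and 147 CPM, 49.9% of the DMSO level, while the replicate 1 pair held 55.0 and 73.7 FPKM. *Lef1* had a log2 fold change of −0.91 in the count libraries and stood at 44.0 and 47.7 FPKM in the replicate 1 pair. *Tcf7*, which encodes Tcf1, was at 158 and 164 against 180 and 215 CPM, at a log2 fold change of 0.29 (SE 0.0794, edgeR adjusted p = 0.00855), or 0.15 without inhibitor replicate 3, and at 59.4 and 73.5 FPKM. *Bach1*, a repressor of antioxidant genes, had a log2 fold change of 0.74. For *Myc* and *Lef1* the replicate 1 pair differed in the other direction. *Mapk13* itself was scarce, with 79 and 74 counts against 21 and 51 counts (log2 fold change −1.47, edgeR adjusted p = 0.00490), and it went the other way in the replicate 1 pair, from 0.191 to 3.28 FPKM. Its log2 fold change was −0.94 without inhibitor replicate 2 and −2.29 without inhibitor replicate 3. *Nfe2l2*, *Keap1* and *Trp53* did not pass, but *Nfe2l2* was called higher with library totals alone (0.21) and *Trp53* with library totals alone (0.25), with upper-quartile scaling (0.20), with at least 10 counts in every library (0.17) and without inhibitor replicate 2 (0.14).

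Other genes known as targets of ATF4, a group to which *Slc7a5*, *Slc7a11* and *Slc3a2* are also counted, were lower throughout the count libraries. All 18 listed were tested and passed, beside 32.3% of all genes tested that were lower, and their median log2 fold change was −1.93. The list was chosen with earlier results of these data known, so this count is no independent support. The part of ATF4 in the changes of the members was not tested. *Stc2*, a secreted glycoprotein, went from 123 and 126 CPM in the DMSO libraries to 8.48 and 8.94 CPM in the inhibitor libraries (log2 fold change −3.84, SE 0.0790). *Atf5* had a log2 fold change of −2.72, the pseudokinase *Trib3* −2.61 and the mitochondrial folate enzyme *Aldh1l2* −2.54. In the replicate 1 pair 16 of the 18 were at least 2-fold lower, beside 1.91% of the 11510 genes at 1 FPKM or more. The other 2, *Ddit4* and *Sesn2*, were not lower there, at 86.9 and 121 FPKM and at 54.3 and 59.0 FPKM. Of 12 targets of NRF2, the factor of the antioxidant response that also controls *Slc7a11*, 2 were lower and 7 were higher. The shares over all genes tested were 32.3% and 31.5%. The median of these targets was 0.32, or 0.19 without inhibitor replicate 2. Of the 10 at 1 FPKM or more in the replicate 1 pair, 7 were lower, with a median of −0.055 and none past 2-fold either way. *Srxn1* had a log2 fold change of −1.92, whereas *Osgin1* had 1.78, *Slc48a1* 0.57 and *Gsr* 0.56. *Me1*, named after its value was seen, was the other that fell, and *Nqo1*, *Txnrd1* and *G6pdx* did not pass. In the replicate 1 pair *Srxn1* (15.9 to 17.3 FPKM) and *Gsr* (25.7 to 20.3 FPKM) went the other way. So did *Osgin1* (0.686 to 0.598 FPKM) and *Me1* (0.245 to 0.406 FPKM), both below 1 FPKM, whereas *Slc48a1* (21.5 to 24.7 FPKM) did not. Without inhibitor replicate 3, *Txnrd1* (−0.10) and *G6pdx* (−0.15) were called lower, so that 4 were.

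The genes whose pattern over the 4 count libraries was most like that of *Slc7a5* were *Gtpbp2*, *Chchd10*, *Mfhas1*, *Lars* and *D17H6S56E-5*, with root mean square differences between 0.0358 and 0.0879 in mean-centred log2 CPM among 2290 genes of similar level. *Gtpbp2*, the closest, was at 505 and 510 CPM in the DMSO libraries and 112 and 119 CPM in the inhibitor libraries. In the replicate 1 pair, which the rule did not use, 4 of these 5 were lower, *Gtpbp2* from 93.2 to 41.3 FPKM and *Lars*, the cytosolic leucyl-tRNA synthetase, from 80.8 to 29.2 FPKM, and *Mfhas1* was not, at 29.0 and 32.7 FPKM. For *Slc3a1* the genes of like pattern included *Maged1*, the closest, *Tmem119*, *Ubap1l* and *Ccr3*, between 0.0716 and 0.136 among 6576 genes. *Maged1* was at 3.84 and 4.12 CPM in the DMSO libraries and 30.8 and 32.4 CPM in the inhibitor libraries. These 4 were higher with the inhibitor in the replicate 1 pair, *Maged1* from 0.438 to 1.85 FPKM, and 3 of them were below 1 FPKM in both libraries. Beside this and the 4 of 5 above, 5010 of the 11510 genes at 1 FPKM or more in that pair were lower. The median log2 ratio of those genes was 0.079.

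The members share little in position. *Slc7a7* and *Slc7a8* lie 304 kb apart on chromosome 14 (*Slc7a8* at chr14:54722209-54781946), and *Slc7a5* and *Slc7a6* (chr8:106168857-106198706) are both on chromosome 8, far from each other. Upstream sequences from RefSeq (GRCm38.p6) were matched by symbol for 7 of the 9 members, in 13 windows of 250 bases before a transcript start, 5 of them of *Slc7a7* and some overlapping; *Slc7a3* and *Slc7a5* were not among them. Both strands were searched for 4 motifs. TGATGNAA, the core of amino acid response elements, is in 3.45% of all 32851 windows of this length and in 3 of the 13, of *Slc7a11* and *Slc7a7*. TCAAAG, the core motif of Tcf1 and Lef1, is in 13.8% of all windows and in 4 of the 13, of *Slc3a1*, *Slc3a2*, *Slc7a1* and *Slc7a7*. The windows of *Slc3a2* and *Slc7a1* with this motif lie inside the gene spans given above. Annotated exons cover 169 bases of the *Slc3a2* window and all 250 bases of the *Slc7a1* window. TGACNNNGC, the core of antioxidant response elements, is in 10.2% of all windows and in 2 of the 13, of *Slc7a1* and *Slc7a6*, and CACGTG, the E-box of Myc, is in 6.02% and in none of the 13. A match describes the letters of these windows only.

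The windows of *Slc7a11*, which fell and has 2 matches to TGATGNAA, and of *Slc3a1*, the member that rose, are shown 5′ to 3′ on the strand of the gene. In that of *Slc7a11* (chr3:50443614-50443863, minus strand) capitals mark 2 matches to TGATGNAA on opposite strands, starting 66 and 47 bases before the transcript start. In that of *Slc3a1* (chr17:85028097-85028346, plus strand) capitals mark 1 match to TCAAAG, starting 8 bases before the transcript start. No other of the 4 motifs matches in either window.
Slc7a11: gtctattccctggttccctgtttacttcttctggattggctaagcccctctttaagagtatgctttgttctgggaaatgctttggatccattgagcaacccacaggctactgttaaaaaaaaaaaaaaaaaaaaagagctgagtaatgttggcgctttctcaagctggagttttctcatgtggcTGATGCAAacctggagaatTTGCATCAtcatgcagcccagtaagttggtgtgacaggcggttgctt
Slc3a1: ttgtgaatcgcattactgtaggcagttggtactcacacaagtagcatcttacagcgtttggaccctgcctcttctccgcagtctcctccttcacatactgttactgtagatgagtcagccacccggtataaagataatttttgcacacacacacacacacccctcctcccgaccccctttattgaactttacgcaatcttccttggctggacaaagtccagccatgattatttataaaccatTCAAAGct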

How the data were processed

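Messenger RNA of 6 libraries was sequenced, 3 per group. Per the labels, the submitters' processing notes name fastp 0.21.0, HISAT2 2.1.0, StringTie 2.1.5 and DESeq2 1.30.1 for replicates 2 and 3 and FastQC and HISAT2 for replicate 1, on mouse build mm10 (GRCm38); the authors deposited whole-number counts per gene for replicates 2 and 3. The values of the replicate 1 pair, as deposited by the authors, carry no named unit and were read as FPKM, because they are not whole and fall with transcript length relative to the counts (log-log slope −0.901 over 9862 genes); their depth is unknown.

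Counts were filtered with filterByExpr (minimum count 10), scaled by TMM and tested with the quasi-likelihood functions of edgeR 4.0.16 in R 4.3.3, DMSO replicates 2 and 3 against inhibitor replicates 2 and 3, with Benjamini-Hochberg adjustment over 16269 genes and a threshold of 0.05. The step was tested on simulated data. The replicate 1 pair was kept apart, given its other kit and unit, and compared as log2(FPKM + 1) only; past the fold means a log2 ratio of at least 1 either way. Ratios were tested by exact permutation. Positions, and the longest principal transcript of each gene, are from GENCODE vM21. Counts of replicates differed beyond sampling noise (mean chi-square 2.98 in DMSO-treated and 9.65 in inhibitor-treated cells, with 1 degree of freedom), which does not tell separate cultures from repeat libraries of 1 culture. The members and the gene lists were chosen with earlier results of these data known. Beyond the members and regulators, at most 4 genes of a list were named, those with the smallest p-values, and others are marked or were named after their values were seen, as were marker genes and untested genes. Similar genes were the 5 with the smallest root mean square difference in mean-centred log2 CPM, at an average log2 CPM within 2; 1 similar gene and 1 B cell marker are not reported here, the marker being left out of its list. Alternatives were RLE, upper-quartile and total-count scaling, other count filters, DESeq2 1.42.0, a replicate block, each library left out, and for replicate 1 a pseudocount of 0.1 and rescaling by the median ratio.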

Additional observations from a re-analysis of the deposited data

How the results depend on the processing

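No member changed direction in the count libraries under any of the 11 alternatives, and all but *Slc7a7* stayed on their side of the threshold. *Slc7a7* lost its call under RLE scaling (−0.36), upper-quartile scaling (−0.29), library totals alone (−0.25), a minimum of 10 counts in every library (−0.33) and DESeq2 (−0.36), and without a library it lay between −0.45 and −0.30; the cause was not tested. *Slc7a8* has no value with the minimum of 10 counts. Library totals alone moved the median of all genes from 0.01 to 0.14.

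Of other Slc7 genes 1 was lower with the minimum of 10 counts and 1 with DESeq2. With library totals alone 4 regulators were higher. NRF2 targets called lower numbered between 2 and 4 when a library was left out. Neutrophil markers called lower numbered 1 with no filter and between 0 and 1 without a library, and those called higher 0 with the minimum of 10 counts and 0 with DESeq2, which called 1 CD8 T and NK cell marker lower. The median of other amino acid transporters was −0.010 with RLE, 0.057 with upper quartiles, 0.101 with library totals, 0.121 with no filter, 0.021 with the minimum of 10 counts, −0.002 with DESeq2, and between −0.049 and 0.029 without a library. Medians with library totals alone were 0.20 for Slc3a2 partners, −1.81 for ATF4 targets and 0.45 for NRF2 targets, the last being 0.40 with upper quartiles. Without a library they lay between −2.05 and −1.89 for ATF4 targets and between 0.19 and 0.37 for NRF2 targets. In replicate 1 a pseudocount of 0.1 gave log2 ratios of 0.28 for *Slc7a7*, −1.26 for *Slc7a11* and 0.68 for *Slc3a1*, and rescaling gave −0.67 for *Slc3a2*.

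Of the other genes named, none that changed sign passed the test in the setting where it did so, and the cause was not tested. With library totals alone the log2 fold change was 0.031 for *Bsg*, 0.124 for *Cd4*, 0.037 for *G6pdx*, 0.051 for *Keap1*, 0.033 for *Nqo1*, 0.038 for *Slc38a7*, 0.018 for *Slc43a1*, 0.101 for *Slc43a2* and 0.056 for *Txnrd1*. With upper quartiles it was 0.080 for *Cd4*, 0.006 for *Keap1*, 0.057 for *Slc43a2* and 0.012 for *Txnrd1*, and with the minimum of 10 counts 0.044 for *Cd4* and 0.021 for *Slc43a2*. *Cd4* was at 0.013 with RLE and 0.008 with DESeq2. With the replicate number as a block *Slc38a2* was at −0.00029. Without a library *Cd4* lay between −0.050 and 0.041, *Slc38a2* between −0.101 and 0.093, *Slc43a1* between −0.319 and 0.076 and *Nqo1* between −0.251 and 0.057. In 12 cases a call ended in the same direction and in 10 cases 1 arose, for 7 and 6 genes.

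With the replicate number as a block, 5384 genes were lower and 5261 higher, 7 members were lower and 1 higher, and *Oxa1l* passed (−0.186, adjusted p = 0.0387); the deviations of same-numbered libraries had a correlation of −0.00641 across genes. A library left alone in its group is assumed to vary like the other group. Per transcript length the ratio of summed light chains to *Slc3a2* differed by −0.99 and the share of *Slc7a5* by −17.4 percentage points, against −0.98 and −17.8 from reads. The 2 libraries per group limit every test here, and the exact tests cannot pass the threshold.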
